A study of Mus spretus with 12 samples.

Results

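The 10 genes described here carry out de novo lipogenesis and fatty acid desaturation: Acly, Acaca, Acacb, Fasn, Scd1, Fads1, Fads2, Elovl6, Elovl5 and Srebf1. They were chosen by name, and every non-control spot of the arrays that bears one of these gene names was taken. All 10 genes were on the array with 28 probes in all, of 56605 probes. All 10 genes passed the filter on dim probes and were tested among 18678 genes. The filter kept 25 of the 28 probes, and the other 3 (1 each of Acaca, Elovl5 and Fads2) were not well above background on the arrays, except the Acaca probe on 1 array.

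The RNA came from livers of male Mus spretus of the inbred wild-derived strain SPRET/EiJ, aged 22 months at sampling. There were 3 groups of 4 arrays, each fed for 60 days. The control group ate Teklad diet with corn oil. The DDE group ate the same diet with p,p'-DDE, a persistent metabolite of the insecticide DDT, at 450 mg/kg in corn oil. The group labelled PXDDE, called DDE_PXM here, had the same p,p'-DDE feed, and its drinking water contained must of Pedro Ximenez grapes (polyphenols at 85 mg/L, and glucose and fructose in equal parts at 31 g/L). By its title, the study asked which transcripts go with protection by the must from liver injury under p,p'-DDE. All groups were aged animals on the same base diet, sugar and polyphenols were given together, and must without p,p'-DDE is not analysed here, so the parts of the must cannot be told apart. The labels do not say whether each array is a separate animal, so the p-values measure array-to-array spread, part or all of which may be technical.

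De novo lipogenesis turns surplus sugar into fat. Citrate exported from mitochondria is split into acetyl-CoA, acetyl-CoA is carboxylated to malonyl-CoA, and fatty acid synthase joins these units into palmitate. Elongases and desaturases then lengthen palmitate and insert double bonds, and other desaturases and elongases act on the essential fatty acids of the diet. In liver, insulin acts on this program largely through the transcription factor SREBP-1c and sugar through ChREBP.

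Most of these genes have probes at several positions, and some of the results below turn on where a probe lies. The probes that lie away from the 3' end of the RefSeq transcripts are therefore shown. Each is 60 bases long, written 5′ to 3′ in lower case as the scanner files give it, with coordinates of build mm9, and each has at least 1 reading frame without a stop codon. The first lies in Acly on the minus strand at chr11:100365518-100365577 and starts at base 1597 of its transcript. The next, in Acaca, lie on the plus strand at chr11:84009021-84009080 (base 81) and chr11:84211638-84211697 (base 6880). The Acacb probe lies on the plus strand at chr5:114667674-114667733 (base 3778). The Fads1 probe lies on the plus strand at chr19:10257644-10257703 (base 266) and the Fads2 probe on the minus strand at chr19:10163229-10163288 (base 595).
Acly A_55_P2082914: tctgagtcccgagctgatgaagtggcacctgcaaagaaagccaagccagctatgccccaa
Acaca A_55_P2121392: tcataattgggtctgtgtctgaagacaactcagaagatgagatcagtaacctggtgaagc
Acaca A_55_P2084703: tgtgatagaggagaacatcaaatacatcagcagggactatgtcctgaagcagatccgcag
Acacb A_66_P110803: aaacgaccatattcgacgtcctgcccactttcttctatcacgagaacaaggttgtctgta
Fads1 A_55_P2897923: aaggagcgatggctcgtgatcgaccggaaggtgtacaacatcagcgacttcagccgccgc
Fads2 A_66_P130115: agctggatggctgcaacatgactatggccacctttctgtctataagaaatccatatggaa

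The probe that stands for each gene lies toward the 3' end of its transcript. On chromosome 11 these are Acly at chr11:100337674-100337733 (minus strand), Acaca at chr11:84215093-84215152 (plus), Fasn at chr11:120668460-120668519 (minus) and Srebf1 at chr11:60013214-60013273 (minus). On chromosome 19 they are Scd1 at chr19:44469387-44469446 (minus), Fads1 at chr19:10270530-10270589 (plus) and Fads2 with ends at chr19:10138750-10139180 (minus), a span longer than the probe. The others are Acacb at chr5:114700702-114700761, Elovl6 at chr3:129337756-129337815 and Elovl5 at chr9:77832205-77832264, all on the plus strand. Exon and intron positions were not analysed here.

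A value below is log2 of a probe's processed signal over the 75th percentile of its array, so 0 is the level of that percentile and a step of 1 is a doubling. That percentile differed between the groups: it was 492 to 570 signal units in control, 551 to 662 in DDE and 692 to 709.7 in DDE_PXM. On the arrays 50.1% to 52.0% of spots were well above background. Each gene is given at its brightest kept probe. A change is called at an adjusted p under 0.05 (limma, Benjamini-Hochberg over all genes), and rose and fell are used for called changes alone. The liver markers were present: 10 of 10 hepatocyte markers were tested, and their summed signal, in units of the 75th percentile, was 3022 to 3322 in control, 2799 to 3012 in DDE and 2623 to 2880 in DDE_PXM. Calls were common among all genes, which the counts below have to be read against: 50.3% of the genes tested were called in DDE against control, 49.9% in DDE_PXM against DDE and 70.9% in DDE_PXM against control. The 3 comparisons share arrays pairwise, so they are not independent of each other.

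Under p,p'-DDE alone, 6 of the 10 genes fell (Acly, Acacb, Fasn, Scd1, Elovl6 and Srebf1), 1 rose (Fads1) and 3 did not pass the test (Acaca, Elovl5 and Fads2). Over all genes, 26.3% fell and 24% rose in this comparison. The median log2 change of the 10 genes was -0.34, and that of all genes was -0.02. With must added to the p,p'-DDE diet, 9 of the 10 genes were higher than under p,p'-DDE alone and none was lower, beside 20.2% higher and 29.7% lower over all genes. The median log2 change was 1.08 for the 10 genes and -0.04 for all genes. The must group also stood above the control group, with 9 of 10 genes higher and none lower, beside 31.6% and 39.3% over all genes, and a median of 0.70 against -0.06. Fads2 was the gene without a call in all 3 comparisons. The groups did not overlap on the arrays measured for 7 of the 10 genes in DDE against control (46.4% of all genes), for 9 in DDE_PXM against DDE (44.7%) and for 9 in DDE_PXM against control (65.2%).

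**Figure D1:**
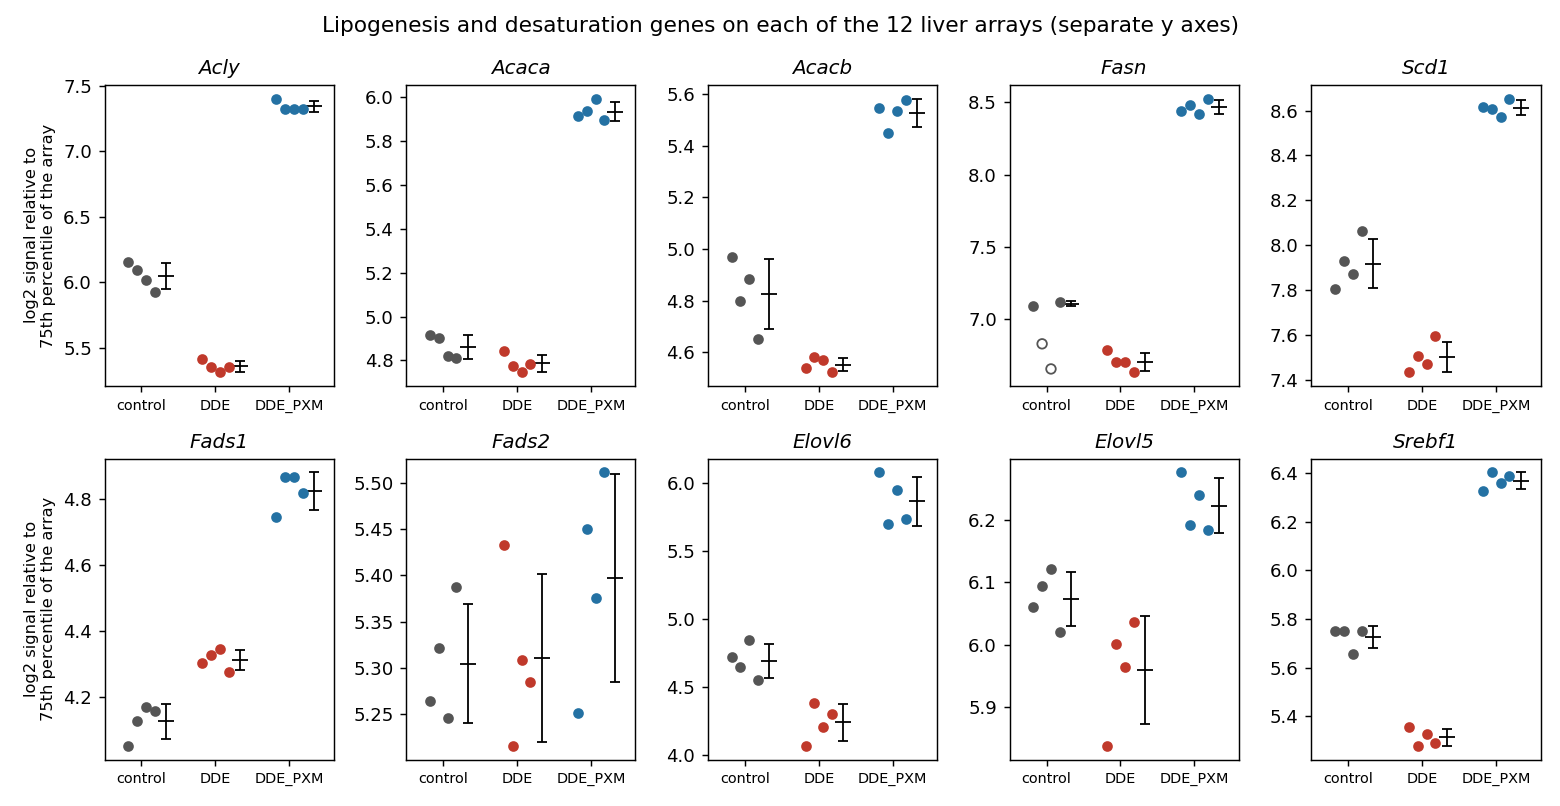
Log2 signal relative to the 75th percentile of the array (y axis, its own range in each panel) for the 10 genes, by group (x axis), with 1 point per array and the mean ± SD of the measured arrays beside the points. Open points are the 2 Fasn spots that carried an outlier mark and were left out of the fit; the DDE_PXM points stand above all others for 9 of the 10 genes, and the groups overlap for Fads2.

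The choice of scaling moved calls of several of the 10 genes in DDE against control. In the must comparisons it moved the call of Fads2 alone, as given below for that gene, and sizes as well. Median centring of the arrays, used instead of the 75th percentile, moved the median of all genes to 0.21, 0.10 and 0.32 in the 3 comparisons, in the order above. The share of higher calls among all called genes was 47.7% in DDE against control and 81.3% after that centring. It was 40.6% and 66.3% in DDE_PXM against DDE, where quantile normalisation gave 52.2% and the deposited values 52.6%, and 44.5% and 73.1% in DDE_PXM against control. After median centring 3 of the 10 genes fell and 3 rose under p,p'-DDE, whereas all 10 were higher in both must comparisons. The median of the 10 genes in DDE_PXM against control, 0.70 at the main scaling, was 1.07 after median centring, 1.09 with quantile normalisation, 1.05 with normexp and quantile and 1.04 in the deposited values. In DDE_PXM against DDE it was 1.08 at the main scaling and 1.23 to 1.39 under these. In DDE against control it was -0.34, and -0.10 after median centring. That centring brought Acly there to -0.46, Scd1 to -0.18, Srebf1 to -0.18 and Fads1 to 0.42, all still called, and quantile normalisation brought Scd1 to -0.26.

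Among the enzymes that supply carbon, Acly, ATP citrate lyase, makes cytosolic acetyl-CoA from citrate. It read 6.16, 6.09, 6.02 and 5.92 on the control arrays, 5.41, 5.35, 5.31 and 5.35 on the DDE arrays and 7.40, 7.32, 7.32 and 7.33 on the DDE_PXM arrays. The DDE arrays were the lowest and the DDE_PXM arrays the highest, with no overlap between any groups. Acly fell by 0.69 on the log2 scale (SE 0.052, adjusted p = 1.2e-06) under p,p'-DDE. It was 3.96-fold higher in DDE_PXM than in DDE (log2 1.98, SE 0.052, adjusted p = 1.17e-10), the 98th largest rise among all genes, and 2.45-fold higher than in control. Its other probe, far upstream in the transcript, gave log2 changes of -0.66, 2.24 and 1.57 in the same 3 comparisons, and the test for a difference between the probes did not pass in any of them (adjusted p = 0.967, 0.506 and 0.305). On that probe DDE replicate 1 read -1.03, within the control range of -1.27 to -0.87, while the other DDE arrays lay at -2.07 to -1.82.

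Acaca encodes acetyl-CoA carboxylase 1, the cytosolic enzyme that makes malonyl-CoA for synthesis. Its values were 4.91, 4.90, 4.82 and 4.81 in control, 4.84, 4.77, 4.75 and 4.78 in DDE and 5.91, 5.94, 5.99 and 5.90 in DDE_PXM. The control and DDE arrays overlapped, and all DDE_PXM arrays lay about a doubling above them. The change under p,p'-DDE was -0.08 (SE 0.042, adjusted p = 0.158), and median centring turned it to a called 0.16 (adjusted p = 0.0108). Averaging the probes of the gene gave a called fall, at -0.30 (adjusted p = 0.00851). With must the gene was 2.22-fold higher than in DDE (log2 1.15, SE 0.042, adjusted p = 2.67e-09) and 2.10-fold higher than in control.

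Acaca had the most kept probes, 6, spread from the 5' end of its transcripts to the 3' end. In DDE_PXM against DDE all 6 rose, by 1.07 to 1.51, and they did not differ beyond their error (adjusted p = 0.495). In DDE_PXM against control all 6 rose as well, but here the probes differed (adjusted p = 0.00709, as did those of 40.2% of the 6085 genes with several kept probes). The 3 probes at the 5' end rose by 0.60, 0.70 and 0.66, and the 3 probes nearer the 3' end by 1.24, 1.16 and 1.07. In DDE against control the 5' probes changed by -0.52 (adjusted p = 0.0141), -0.43 (adjusted p = 0.0265) and -0.40 (adjusted p = 0.0593), and the 3' probes by -0.27, -0.08 and -0.08, none of them called; the difference between probes did not pass the test there (adjusted p = 0.296). A pair of the 5' probes share 36 bases and are not separate evidence. Leaving out DDE replicate 1, which read -0.60 on the probe at base 81 where the other DDE arrays read -1.49 to -1.36, brought that probe to -0.61 (adjusted p = 5.37e-05), and brought A_55_P2931361 to -0.33 (adjusted p = 0.072). That latter probe also lost its call without control replicate 1 (-0.37, adjusted p = 0.073) or control replicate 2 (-0.39, adjusted p = 0.0699).

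Acacb encodes acetyl-CoA carboxylase 2, the mitochondria-bound form whose malonyl-CoA restrains fatty acid uptake for oxidation. It read 4.97, 4.80, 4.88 and 4.65 in control, 4.54, 4.58, 4.57 and 4.52 in DDE and 5.55, 5.45, 5.54 and 5.58 in DDE_PXM. The 3 groups did not overlap, although the lowest control array was within 0.1 of the highest DDE array. The gene fell by 0.27 (SE 0.063, adjusted p = 0.00379) under p,p'-DDE, a call that median centring ended (-0.04). It was 1.96-fold higher with must than under p,p'-DDE alone (log2 0.97, SE 0.063, adjusted p = 3.37e-07) and 1.63-fold higher than in control (log2 0.70, and 1.08 after median centring).

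The Acacb probes did not move together. The probe at the 5' end changed by 0.98 in DDE_PXM against DDE, as the 3' probe did with 0.97, but the probe at base 3778, between them, changed by -0.03 (adjusted p = 0.894). The 5' probe was dim, with means of -3.33 in control, -3.96 in DDE and -2.99 in DDE_PXM, though well above background on all 12 arrays. The lowest readings well above background on the DDE arrays were -4.78 to -4.55. That middle probe read -1.40, -1.11, -1.11 and -1.09 in control, -1.21, -1.66, -1.89 and -1.42 in DDE and -1.67, -1.80, -1.16 and -1.68 in DDE_PXM, and all 12 readings were well above background. Its DDE and DDE_PXM arrays overlapped. In DDE against control it changed by -0.37 (adjusted p = 0.0848), and the 5' probe changed by -0.64 (adjusted p = 0.0018). That change of the middle probe was called without DDE replicate 1 (-0.48, adjusted p = 0.0314) or DDE_PXM replicate 3 (adjusted p = 0.0437). The 3 probes differed in DDE_PXM against DDE (adjusted p = 9.78e-05, as did those of 15.8% of genes) and in DDE_PXM against control (adjusted p = 4.04e-05). Against control the middle probe changed by -0.40 (adjusted p = 0.0472), while the 3' probe rose by 0.70 and the 5' probe by 0.34 (adjusted p = 0.0308). The call of the middle probe was lost in 8 of the 12 fits that leave out 1 array (adjusted p = 0.056 to 0.126), all but those without control replicate 1, DDE replicate 1 or 3, or DDE_PXM replicate 3. The call of the 5' probe was lost without control replicate 2 or 3 or DDE_PXM replicate 3 or 4 (adjusted p = 0.0549 to 0.0856), with the lowest change, 0.23, without DDE_PXM replicate 3. Averaging the probes of the gene brought its rise over control to 0.22 (adjusted p = 0.0564), its rise over DDE to 0.64 (adjusted p = 0.000181) and its change under p,p'-DDE to -0.43.

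Fasn encodes fatty acid synthase, which builds palmitate from acetyl-CoA and malonyl-CoA, and has a single probe here. The scanner software marked its spot as an outlier on control replicates 2 and 3, so the fit used the control values 7.09 and 7.12 alone. The DDE arrays read 6.78, 6.70, 6.71 and 6.63, and the DDE_PXM arrays 8.44, 8.48, 8.42 and 8.53. Must set Fasn 3.39-fold above DDE (log2 1.76, SE 0.047, adjusted p = 3.45e-09), the 116th largest rise, and 2.56-fold above control. Under p,p'-DDE the change was -0.40 (SE 0.057, adjusted p = 0.000333) with the 2 control arrays. The marked spots read 6.83 and 6.65, the latter inside the DDE range, and with them kept the control mean was 6.92 ± 0.22 (SD, n = 4) and the change -0.22 (adjusted p = 0.066). The fall of Fasn under p,p'-DDE therefore rests on leaving out these spots, and with them 5 of the 10 genes fell. With the spots left out, the change was -0.22 with quantile normalisation (adjusted p = 0.0139) and -0.15 after median centring (adjusted p = 0.107). Both must comparisons kept their call with the spots included, at 1.76 and 1.54.

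**Figure D2:**
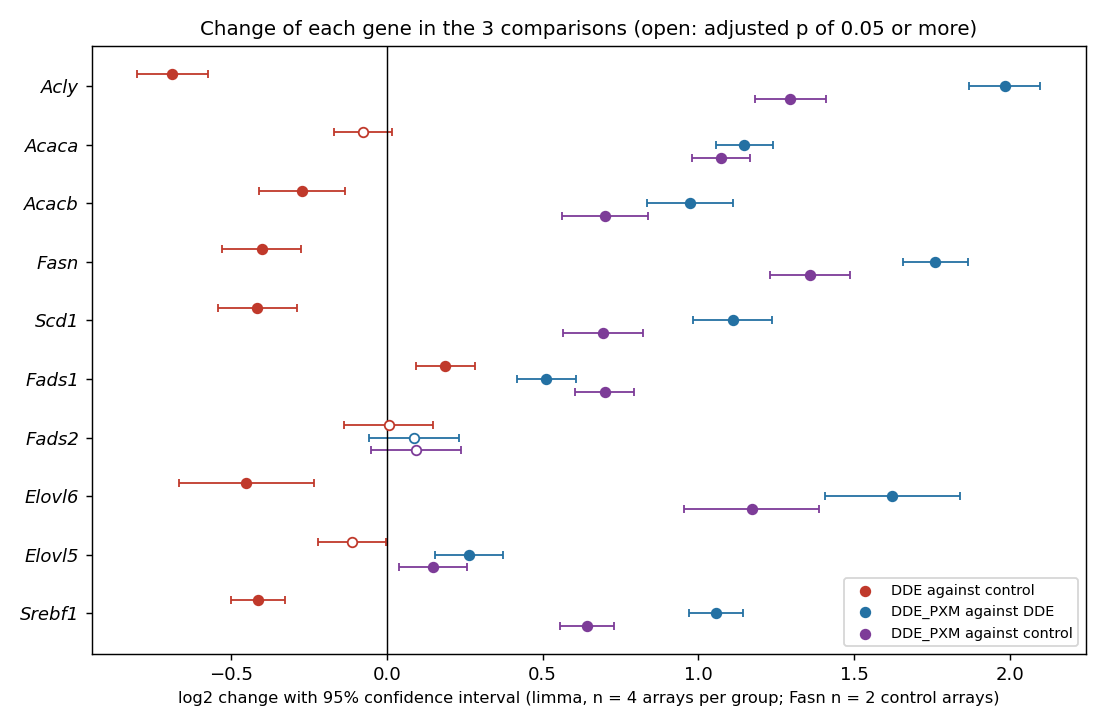
Log2 change of each of the 10 genes (x axis, with 95% confidence interval) in DDE against control (red), DDE_PXM against DDE (blue) and DDE_PXM against control (purple). Filled points passed an adjusted p under 0.05; Acly lies at -0.69, 1.98 and 1.30, and the intervals of Fads2 span 0 in all 3 comparisons.

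Of the desaturases, Scd1, stearoyl-CoA desaturase 1, makes oleate and palmitoleate from saturated fatty acids. Its values were 7.80, 7.93, 7.87 and 8.06 in control, 7.44, 7.50, 7.47 and 7.60 in DDE and 8.62, 8.61, 8.57 and 8.65 in DDE_PXM. The 3 groups did not overlap. Scd1 fell by 0.42 under p,p'-DDE (SE 0.058, adjusted p = 0.000134). It was 2.16-fold higher in DDE_PXM than in DDE (log2 1.11, SE 0.058, adjusted p = 5.86e-08) and 1.62-fold higher than in control. The last change, 0.69 on the log2 scale, was 1.06 to 1.13 with quantile normalisation, with normexp and quantile, after median centring and in the deposited values. A second probe named Scd1, drawn from the cDNA BC114417 and placed on the plus strand where the first lies on the minus strand, gave -0.69, 1.71 and 1.02. It moved in the same directions but further than the first probe in DDE_PXM against DDE (adjusted p of the difference = 0.000122) and in DDE_PXM against control (adjusted p = 0.0102), and the difference missed the threshold in DDE against control (adjusted p = 0.0531). It read -0.87, -1.05, -0.90 and -0.91 in control, -1.57, -1.58, -1.81 and -1.53 in DDE and 0.18, 0.06, 0.17 and -0.05 in DDE_PXM, again with no overlap. Scd1 has close paralogs, and how far these probes also bind their transcripts was not checked.

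Fads1 encodes the delta-5 desaturase, which makes arachidonate and EPA. It was the only gene of the 10 called higher under p,p'-DDE. It read 4.05, 4.12, 4.17 and 4.16 in control, 4.30, 4.33, 4.34 and 4.28 in DDE and 4.75, 4.87, 4.87 and 4.82 in DDE_PXM. The values stood in 3 steps without overlap. Fads1 rose by 0.19 under p,p'-DDE (SE 0.043, adjusted p = 0.00396), was 1.43-fold higher in DDE_PXM than in DDE (log2 0.51, SE 0.043, adjusted p = 2.86e-06) and 1.62-fold higher than in control (log2 0.70, and 1.07 after median centring). The rise under p,p'-DDE was small, and it missed the threshold under quantile normalisation (adjusted p = 0.0657), with normexp and quantile together (adjusted p = 0.0578) and with the deposited values (adjusted p = 0.055).

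The probes of Fads1 went different ways. The probe at base 266 changed by -0.11 (adjusted p = 0.331), 0.50 and 0.39 in the 3 comparisons, and the first of these was -0.19 (adjusted p = 0.0319) without DDE replicate 1. A probe drawn from the cDNA AK080706, at chr19:10261805-10261864 between the others, fell in all of them, by 0.56 (adjusted p = 0.000182), 0.26 (adjusted p = 0.02) and 0.82 (adjusted p = 3.06e-06). It read 1.06, 0.98, 0.90 and 0.96 in control, 0.64, 0.21, 0.43 and 0.39 in DDE and 0.17, 0.21, 0.06 and 0.17 in DDE_PXM, so its control arrays were the highest and its DDE_PXM arrays the lowest, apart from DDE replicate 2 at 0.21. The Fads1 probes differed in DDE against control (adjusted p = 8.08e-06, as did those of 19.6% of genes), in DDE_PXM against DDE (adjusted p = 9.31e-07) and in DDE_PXM against control (adjusted p = 4.05e-13). Averaging them gave -0.16 under p,p'-DDE (adjusted p = 0.0274), opposite to the brightest probe; the average gave 0.25 in DDE_PXM against DDE (adjusted p = 0.0026) and 0.09 in DDE_PXM against control (adjusted p = 0.157). Without DDE_PXM replicate 3 the fall of the AK080706 probe against DDE was 0.23 (adjusted p = 0.0556). Whether that probe lies in an exon of Fads1 was not analysed here.

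Fads2 encodes the delta-6 desaturase, the first step on essential fatty acids, and lies beside Fads1. It read 5.26, 5.32, 5.25 and 5.39 in control, 5.43, 5.22, 5.31 and 5.28 in DDE and 5.25, 5.45, 5.38 and 5.51 in DDE_PXM. The 3 groups overlapped. The changes were 0.01 (95% interval -0.14 to 0.15), 0.09 (-0.06 to 0.23) and 0.09 (-0.05 to 0.24), with adjusted p of 0.949, 0.294 and 0.226. At this scaling the intervals do not reach the 0.51 and 0.70 of the brightest Fads1 probe in the must comparisons. With the mean of a gene's probes Fads2 rose by 0.27 over control (adjusted p = 0.0208), where Fads1 gave 0.09 (adjusted p = 0.157). Array weights called Fads2 higher against DDE, by 0.14 (adjusted p = 0.0454). Quantile normalisation, normexp with quantile, median centring and the deposited values each called it higher in both must comparisons, by 0.23 to 0.47. Median centring also called Fads2 higher under p,p'-DDE alone, by 0.24 (adjusted p = 0.0156). The probe at base 595 was higher with must at the main scaling too, by 0.25 against DDE (adjusted p = 0.0105) and by 0.42 against control (adjusted p = 0.000167). That probe read 1.65, 1.62, 1.78 and 1.74 in control, 1.96, 1.78, 1.89 and 1.84 in DDE and 1.94, 2.17, 2.17 and 2.20 in DDE_PXM, so its DDE and DDE_PXM arrays overlapped and both lay above the control arrays, DDE only just. The other 3 kept probes of Fads2 passed no test, and the 4 probes did not differ beyond their error in any comparison (adjusted p = 0.627 to 0.956).

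The elongases split in the size of their change. Elovl6, which lengthens palmitate to stearate, read 4.72, 4.65, 4.85 and 4.55 in control, 4.07, 4.38, 4.20 and 4.30 in DDE and 6.07, 5.70, 5.94 and 5.73 in DDE_PXM. The groups did not overlap, though the spread within groups was the widest of the 10 genes in DDE_PXM (SD 0.18). Elovl6 fell by 0.45 under p,p'-DDE (SE 0.099, adjusted p = 0.00284), which median centring reduced to an uncalled -0.22. It was 3.08-fold higher in DDE_PXM than in DDE (log2 1.62, SE 0.099, adjusted p = 2.09e-07), the 132nd largest rise, and 2.25-fold higher than in control.

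Elovl5, which lengthens polyunsaturated fatty acids, moved least of the called genes in the must comparisons. It read 6.06, 6.09, 6.12 and 6.02 in control, 5.84, 6.0, 5.96 and 6.04 in DDE and 6.28, 6.19, 6.24 and 6.18 in DDE_PXM. Control and DDE overlapped, and the DDE_PXM arrays lay just above both. Under p,p'-DDE the change was -0.11 (adjusted p = 0.0779), and it was 0.12 after median centring (adjusted p = 0.0738). With must Elovl5 was 1.2-fold higher than in DDE (log2 0.26, SE 0.05, adjusted p = 0.0011) and 1.11-fold higher than in control (log2 0.15, adjusted p = 0.0181). These sizes depend on the scaling: against DDE the change was 0.41 after median centring and 0.59 to 0.61 with quantile normalisation, with normexp and quantile and in the deposited values, and against control it was 0.52 and 0.56 to 0.59. The mean of the kept probes gave 0.31 against control. The call against control held in all 26 alternatives of the gene fit, with an adjusted p of up to 0.049. In the fit over all kept probes, the brightest probe lost it without control replicate 4 (adjusted p = 0.0569) or DDE_PXM replicate 1 (adjusted p = 0.0575). A second probe rose by 0.34 (adjusted p = 0.0264) and 0.48 (adjusted p = 0.00257) and differed from the first in DDE_PXM against control (adjusted p = 0.0433). Its rise over DDE missed the threshold without DDE replicate 2, 3 or 4 or DDE_PXM replicate 2 or 4 (0.29 to 0.34, adjusted p = 0.0549 to 0.0758).

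Srebf1 encodes the transcription factors SREBP-1a and SREBP-1c, the latter being the regulator of the lipogenic enzymes, and its probe does not tell the forms apart by name. It read 5.75, 5.75, 5.66 and 5.75 in control, 5.36, 5.28, 5.33 and 5.29 in DDE and 6.33, 6.40, 6.36 and 6.39 in DDE_PXM. The 3 groups did not overlap, and the SD within a group was 0.05 or less. Srebf1 fell by 0.41 under p,p'-DDE (SE 0.04, adjusted p = 7.74e-06). It was 2.08-fold higher in DDE_PXM than in DDE (log2 1.06, SE 0.04, adjusted p = 2.94e-09) and 1.56-fold higher than in control. The last change, 0.64 on the log2 scale, was 1.04 with quantile normalisation and with normexp and quantile, 1.02 after median centring and 0.99 in the deposited values. Transcript levels do not show how much of the protein was processed to its nuclear form.

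Counted over probes in place of genes, 12 of the 25 kept probes fell and 1 rose in DDE against control, beside 24.5% and 23% of all kept probes (47.5% called in all). In DDE_PXM against DDE 20 rose and 1 fell, beside 18.6% and 27.1% (45.7% called). In DDE_PXM against control 20 rose and 2 fell, beside 31.3% and 37.2% (68.6% called). The probes that were lower with must were the AK080706 probe of Fads1 and, against control, the middle probe of Acacb. Without must, in DDE against control, that Acacb probe already changed by -0.37 (adjusted p = 0.0848).

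**Figure D3:**
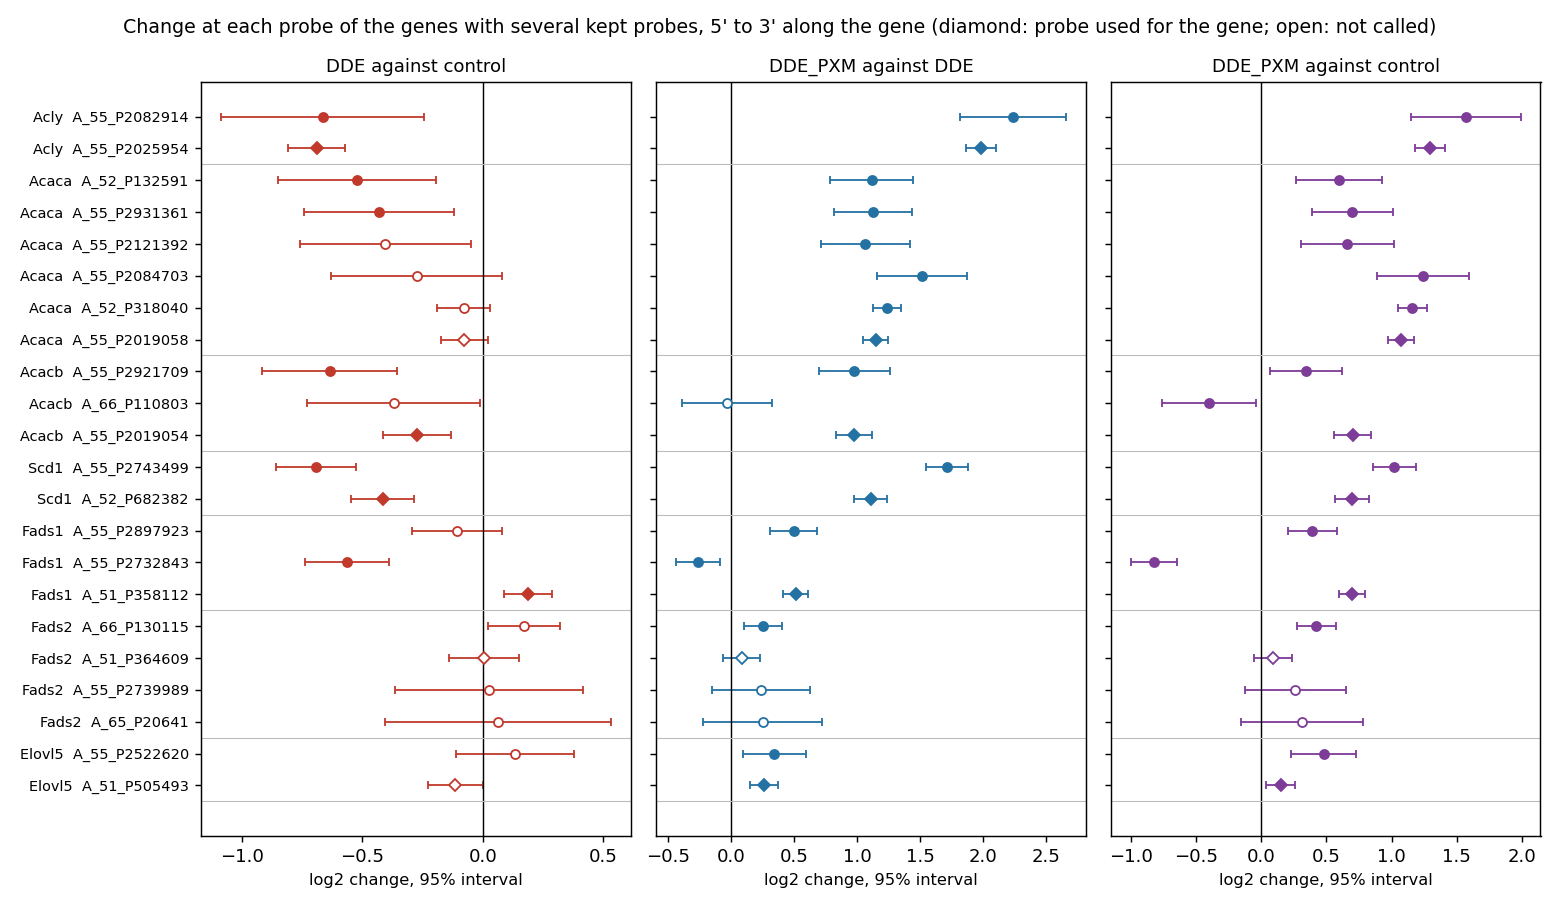
Log2 change with 95% confidence interval (x axis) at each kept probe of the 7 genes with several kept probes (y axis, in order from 5' to 3' along the gene), with 1 panel per comparison. Diamonds mark the probe that stands for the gene and open symbols changes that were not called; the 6 Acaca probes lie together at 1.07 to 1.51 in DDE_PXM against DDE, whereas Acacb and Fads1 each have a probe apart from the rest.

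The arrays lay on 5 slides, each holding more than 1 group, and every comparison could be made within 3 slides. With must against DDE, the within-slide log2 changes were 1.91 to 2.05 for Acly, 1.71 to 1.74 for Fasn, 1.67 to 1.74 for Elovl6, 1.05 to 1.25 for Acaca, 1.1 to 1.22 for Scd1 and 1.03 to 1.05 for Srebf1. Those of Acacb were 0.97 to 1.04, of Fads1 0.42 to 0.52 and of Elovl5 0.27 to 0.35. The groups did not overlap for these 9 called genes, so their direction within slides was fixed in advance and is no further evidence. The within-slide changes of Fads2 were 0.04 to 0.08. Against control, the must changes within slides ran from 0.0056 to 0.063 for Fads2 and 0.15 to 0.17 for Elovl5 up to 1.23 to 1.40 for Acly. Fasn, with the marked control spots included, ranged from 1.36 to 1.79. In DDE against control, Acly ranged from -0.80 to -0.67, Scd1 from -0.46 to -0.21, Srebf1 from -0.46 to -0.38, Elovl6 from -0.47 to -0.41, Acacb from -0.45 to -0.23 and Fads1 from 0.16 to 0.23. Fasn, again with the marked spots included, ranged there from -0.46 to 0.04.

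The genes that feed the pathway were mostly higher with must as well. Counts for this and the lists below stand beside the shares over all genes. In DDE_PXM against DDE 20.2% were higher and 29.7% lower, in DDE against control 24% and 26.3%, and in DDE_PXM against control 31.6% and 39.3%. Of 10 genes for acetyl-CoA, citrate and NADPH supply, 9 were higher in DDE_PXM than in DDE (median log2 change 0.68) and all 10 were higher than in control (median 0.77). Acss2, which makes acetyl-CoA from acetate, rose 2.70-fold over DDE. G6pdx, the entry enzyme of the pentose phosphate pathway, rose 2.55-fold and Me1, the cytosolic malic enzyme, rose 2.38-fold; both yield NADPH. Under p,p'-DDE alone the list was mixed, with 5 genes higher and 4 lower: G6pdx fell 1.99-fold and Acss2 fell 1.36-fold, while Pgd, a later NADPH-yielding enzyme of the pentose phosphate pathway, rose 1.55-fold and Me1 rose 1.27-fold. Against control, Me1 and Pgd were the furthest up with must, at 3.03-fold and 3.02-fold, and G6pdx was 1.28-fold higher.

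Other elongation and desaturation genes did not share one direction. Of 14 tested, 4 were higher and 3 lower in DDE_PXM against DDE (median -0.04, the same as that of all genes). The share called there was close to the 49.9% of all genes. In DDE against control 5 of the 14 were higher and 4 lower, and in DDE_PXM against control 7 were higher and 5 lower. Scd3 followed the pattern of Scd1 with a larger size: it fell by 0.74 under p,p'-DDE and was 5.16-fold higher with must than under p,p'-DDE alone (log2 2.37, adjusted p = 8.81e-12). Scd2 was 1.68-fold higher with must against DDE, and its change under p,p'-DDE was 0.10 (adjusted p = 0.0747). The Scd genes are similar in sequence, and how far their probes share signal was not tested. Elovl3, an elongase of saturated very long chains, went down at every step, by 0.77 in DDE against control, by 0.50 in DDE_PXM against DDE and by 1.28 in DDE_PXM against control. Fads3 rose by 0.89 under p,p'-DDE, and its change with must was -0.10 (adjusted p = 0.0805). Tecr, the reductase that ends each elongation cycle, rose by 0.57, 0.50 and 1.07.

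**Figure D4:**
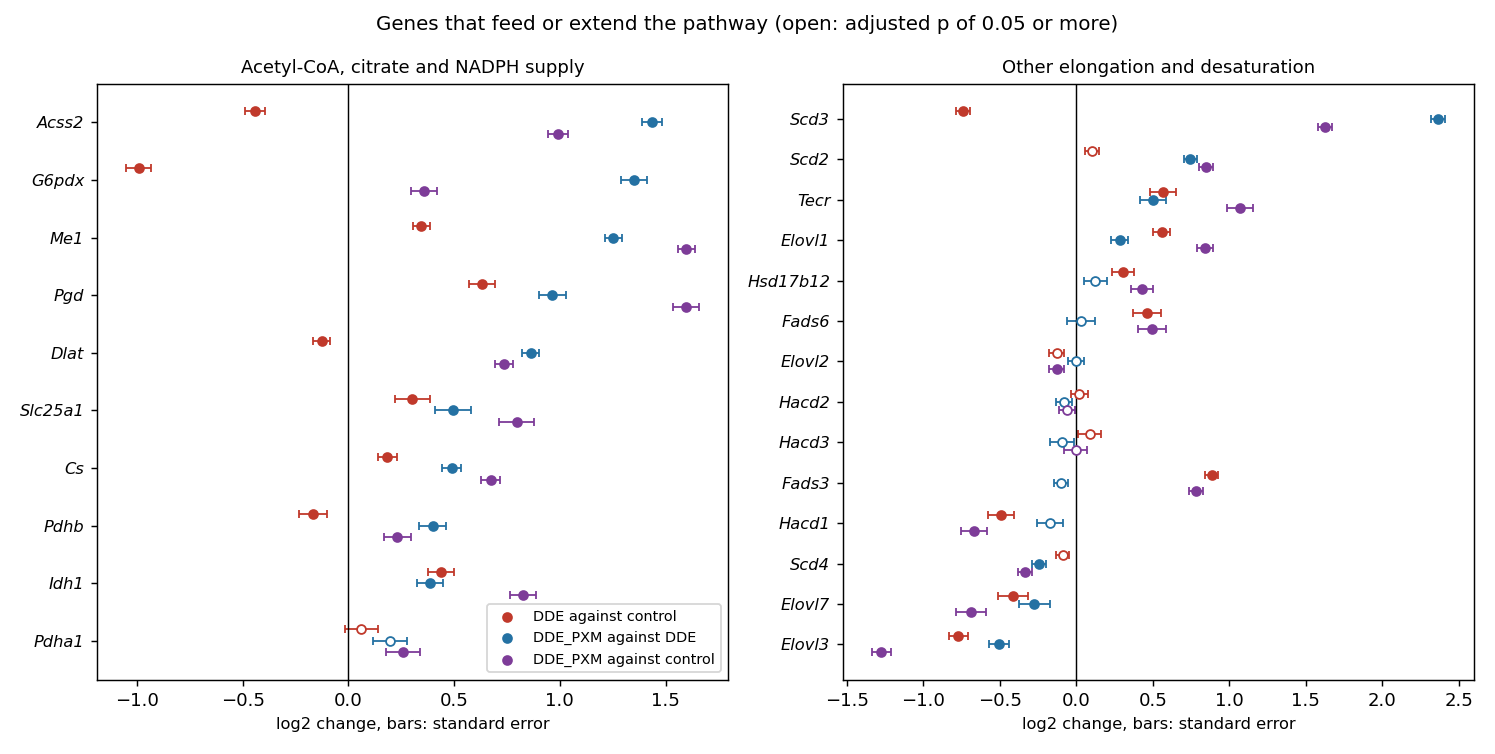
Log2 change with its standard error (x axis) of the 10 supply genes (left) and the 14 other elongation and desaturation genes (right), for DDE against control (red), DDE_PXM against DDE (blue) and DDE_PXM against control (purple). Filled points were called; all 10 supply genes lie right of 0 in purple, and Scd3 and Elovl3 lie at opposite ends on the right.

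Among 18 regulators of the SREBP, ChREBP, LXR and insulin routes, 8 were higher and 3 lower in DDE_PXM against DDE, 8 and 4 in DDE against control and 11 and 4 in DDE_PXM against control, with medians of 0.12, 0.14 and 0.32. Scap, the escort of SREBP out of the endoplasmic reticulum, fell by 0.24 under p,p'-DDE and rose by 0.54 with must against DDE. Its retention partners differed: Insig1 rose by 0.45, 0.38 and 0.83 in the 3 comparisons, and Insig2 rose by 0.31, then fell by 0.59 with must against DDE. Against control Insig2 changed by -0.29, and median centring turned this to 0.09. Mlxipl, which encodes ChREBP, fell by 0.48 under p,p'-DDE and rose by 0.14 with must against DDE (adjusted p = 0.0404). Against control Mlxipl changed by -0.33, a call that 4 of the 5 other scalings did not make and that median centring turned to 0.04. Irs1 rose by 0.34 with must against DDE and Irs2 fell by 0.27, both being adaptors of the insulin receptor.

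Of 12 genes that control acetyl-CoA carboxylase or handle malonyl-CoA, 5 were higher and 1 lower in DDE_PXM against DDE, 5 and 2 in DDE against control and 6 and 1 in DDE_PXM against control, with medians of 0.06, 0.06 and 0.23. Mid1ip1, which promotes polymerisation of acetyl-CoA carboxylase, changed by -0.01 under p,p'-DDE and rose by 0.96 with must. Its partner Thrsp fell by 0.35, rose by 0.44 and stood at 0.10 over control (adjusted p = 0.0669). Hlcs, which attaches biotin to the carboxylases, rose by 0.43 with must against DDE. The subunits of AMP-activated kinase, which inhibits the carboxylases, included Prkaa1, up by 0.46, and Prkab2, down by 0.48, in DDE against control.

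Of 5 long-chain acyl-CoA synthetases 3 were higher and 1 lower in DDE_PXM against DDE, with Acsl5 up by 0.85 and Acsl1 down by 0.39, after Acsl1 had risen by 0.43 in DDE against control. Mitochondrial fatty acid synthesis is a separate pathway that makes the precursor of lipoate. None of its 5 tested genes was higher and 4 were lower in DDE_PXM against DDE, led by Oxsm, down by 0.54. Median centring gave 1 higher and 0 lower there. Ndufab1, the acyl carrier protein of that pathway, changed by -0.20, and by 0.11 to 0.14 with quantile normalisation, with normexp and quantile and in the deposited values, none of these called.

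The profile of the 10 genes over the 12 arrays was also compared with that of each other gene. The measure was the root mean square difference between a gene's centred log2 values and the centred mean of the 10 genes, so both the shape and the size of the change count. Nearest were Slc7a4, an amino acid transporter family member, at 0.068, Rcan1, a regulator of calcineurin, at 0.069 and Abcb1b, a drug efflux pump, at 0.077. An unnamed interval probe at 0.087 and Dlat, a pyruvate dehydrogenase subunit, at 0.091 were also among the nearest. Among the genes themselves Acacb (0.076), Srebf1 (0.077) and Scd1 (0.094) lay closest to the mean, and Acly (0.385) and Fads2 (0.414) lay furthest, on opposite sides in size.

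Markers of other tissues, and of liver cell types other than hepatocytes, moved between the same groups. Of 11 pancreatic acinar markers all 11 were higher in DDE_PXM than in DDE and than in control, with a summed signal, in units of the 75th percentile, of 423 to 444 in control, 322 to 361 in DDE and 1957 to 2052 in DDE_PXM. Of 8 adipocyte markers 6 fell under p,p'-DDE, 3 rose and 2 fell with must against DDE, and 6 were lower with must than in control; their sum was 41.7 to 45.9 in control, 15.3 to 16.4 in DDE and 17.0 to 19.96 in DDE_PXM. Adipoq, the adipocyte hormone adiponectin, was well above background on all arrays, with group means of -0.48 in control, -2.48 in DDE and -0.78 in DDE_PXM. Its rise with must against DDE, 1.71, was the largest of the 8. Retn and Cfd rose there by 0.97 and 0.95, and Lipe and Adig changed by -0.74 and -0.37. Plin1, a coat protein of adipocyte fat droplets, was well above background on 2 of the 4 control arrays, and Fabp4 changed by -0.11 in DDE_PXM against DDE (adjusted p = 0.289). Of 8 adrenal cortex markers all 8 fell under p,p'-DDE and rose with must against DDE, and their sum was 27.1 to 29.2 in control, 3.59 to 3.71 in DDE and 45.3 to 49.9 in DDE_PXM. In DDE, Cyp11a1 and Cyp11b1 were not above background on any array. All 9 skeletal muscle markers fell in all 3 comparisons, with sums of 421 to 434, 160.0 to 173.7 and 118 to 126. Of 9 Kupffer cell markers tested, 8 fell under p,p'-DDE, 7 fell with must against DDE and all 9 were lower with must than in control. Their sum was 85.7 to 93.0 in control, 68.4 to 73.0 in DDE and 50.3 to 53.5 in DDE_PXM. Of 5 cholangiocyte markers tested, 1 rose under p,p'-DDE and 3 were higher and none lower in each must comparison, with sums of 10.04 to 11.1, 11.1 to 12.5 and 12.2 to 14.6. Krt7, among those higher than in DDE, was well above background on the DDE_PXM arrays alone. Of 8 stratified epithelium markers 6 fell under p,p'-DDE, 2 rose and 1 fell with must against DDE, and 6 were lower with must than in control, with sums of 3.51 to 3.87, 0.857 to 1.18 and 1.52 to 1.65. Krt4, Krt14 and Sprr3 were well above background on the control arrays alone, and Krt13 on no DDE_PXM array. They passed the filter through groups where they are high, and their lower readings lie at background. The part of these tissues and cell types in the lipogenic changes was not tested, and in bulk liver fewer cells of a type and less RNA per cell cannot be told apart. Among the hepatocyte markers 2 rose and 3 fell in DDE_PXM against DDE, with changes between -0.31 and 0.33.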

How the data were processed

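Total RNA was labelled with Cy3 and measured on 12 one-colour Agilent arrays. The scanner intensity of each spot was taken as deposited by the authors; per the submitters' processing notes the software was Agilent Feature Extraction 11.5.1.1, and RMA and limma are named without a stated role. The authors also deposited log2 values of the same arrays, made by steps that the sources used here do not state; these correlated with the log2 processed signal at 0.995 to 0.996 and served as an alternative.

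Of 62976 spots per array, 3671 controls and 102 to 177 outlier spots were left out, and spots of a probe were averaged. Values are log2 of the ratio of a signal to its array's 75th percentile. In the summed marker signals, unlike the fits, outlier spots were kept. For these sums a value under its array's lowest reading well above background was raised to that reading. A probe was kept if all arrays of some group had it well above background (27098 of 56605), and each of 18678 genes was given its brightest kept probe. Changes were tested with limma 3.58.1 (R 4.3.3, data.table in version 1.17.8), 1 fit over the 12 arrays with group as the only term and 9 residual degrees of freedom, eBayes and Benjamini-Hochberg adjustment. A second fit covered all kept probes, and differences between probes of a gene were tested with the F test of diffSplice over 6085 genes. The fit was tested on simulated data. Arrays are not counts, so their number limits the precision.

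The members and lists were chosen with earlier results of these data known. The text names all 10 genes, up to 3 called genes per pathway list with the largest change in each comparison, Thrsp, Mlxipl, Insig1, Me1, Acss2, Scd2 and Elovl3, and the 6 genes nearest in profile, of which 1 is not reported here; of these, which are named was chosen after their values were seen, as were Scap, Insig2, Hlcs, Irs1, Irs2, Ndufab1 and the marker genes named. Gene names and mm9 coordinates are those of the scanner files. The array was designed for laboratory mice; Mus spretus mismatches were not checked. Promoter motifs were not analysed, as no reference sequence was used here.

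Slide and scan pass coincided and were used as a block or within slides. Same-numbered arrays did not deviate together (correlations -0.37 to 0.13), so replicate numbers were not taken as pairs. For arrays of the same slide these correlations were -0.11 to 0.35, and the main fit has no slide term. No arrays held identical values. The remaining alternatives are given in the closing section.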

Additional observations from a re-analysis of the deposited data

Results flagged for a closer look

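In 6 of 74 groups of 4 readings of the members' probes the highest or lowest array stood apart from the others by Dixon's criterion. Chance alone gives this in about 1 of 20 groups. Acaca probe A_55_P2121392 read -0.60 on DDE replicate 1, above the -1.49 to -1.36 of the other DDE arrays. Acacb probe A_66_P110803 read -1.40 on control replicate 1, below the -1.11 to -1.09 of the others. Acly read 7.40 on DDE_PXM replicate 1, above 7.32 to 7.33, a gap small beside the changes of the gene. Fads2 probe A_65_P20641 read 2.52 on control replicate 1, below 3.16 to 3.27, and Fads2 probe A_66_P130115 read 1.94 on DDE_PXM replicate 1, below 2.17 to 2.20. Srebf1 read 5.66 on control replicate 3, below the 5.75 of the other control arrays.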

How the results depend on the processing

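Across 780 refits of the 10 genes (26 alternatives, 3 comparisons), 747 kept direction and side of the threshold, 9 lost a call, 12 gained one and 12 changed sign. In DDE_PXM against DDE 9 genes kept their call in all 26 alternatives. In DDE against control the genes called higher numbered 0 with quantile normalisation, with normexp and quantile (RMA-like), with the deposited values and with the mean of a gene's probes, and 3 with median centring, which also left 3 lower in place of 6. Sign changes in DDE against control were those of Acaca (0.16) and Elovl5 (0.12) with median centring and of Elovl5 (0.0103) and Fads1 (-0.16) with the mean of probes. Fads2 also changed sign, at values near 0: -0.0021 with quantile normalisation, -0.0081 with normexp, -0.0044 RMA-like, -0.018 with array weights and -0.0087 with the slide block. Fits without single arrays gave it -0.035 to 0.037. Median centring gave Fads2 a called rise there, at 0.24 (adjusted p = 0.0156). With no filter on dim probes 14103 genes were called in DDE_PXM against DDE (9320 with it) and 21803 in DDE_PXM against control (13242). The unfiltered fit tested a larger set of genes, so these counts do not compare the shares called. Over member probes in DDE against control, those called higher (main 1) numbered 0 with quantile normalisation and the deposited values and 6 with median centring, and those called lower (main 12) numbered 6 with median centring. In DDE_PXM against DDE 0 probes were lower with median centring. In DDE_PXM against control 1 was lower, in place of 2, with quantile normalisation, median centring, the deposited values, the slide block and the replicate block. Leaving out single arrays, chosen for probes after seeing the data, gave 1 to 2 higher and 11 to 14 lower, 0 to 1 lower and 1 to 2 lower probes in these 3 comparisons. Over the pathway lists median centring gave 44 higher (main 25) and 7 lower (16) in DDE against control, 4 lower (12) in DDE_PXM against DDE and 6 lower (14) in DDE_PXM against control. The replicate block changed no call of the 10 genes: 1 higher and 6 lower, then 9 higher in both must comparisons. The cause of these shifts was not tested. Standard errors on the log2 scale were 0.04 to 0.10 for the gene probes and up to 0.21 for the other kept probes, the largest at Fads2 probe A_65_P20641, which was well above background on all 12 arrays.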

Other observations

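Probes other than the gene probes, 15 in all, did not rank the arrays of a group evenly. DDE replicate 1 was the highest DDE array at 11 of the 15, beside 1, 0 and 3 for the other DDE arrays. At the 10 gene probes it was the highest at 5 and the lowest at 3. It shared its slide with DDE_PXM replicate 4, which was the highest DDE_PXM array at 1 of the 15 probes. The probes of a member can share a target, so these counts are not independent.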
